A study of Homo sapiens with 20 samples.

Results

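Fibrinogen and 7 other secreted acute-phase or secreted-peptide genes were followed through the RNA-seq of 4 lung cancer cell lines, 10 genes of the 58233 gene identifiers counted. The genes were chosen by symbol, on the basis of the contrast between *ADAR* and *GFP* sgRNAs in vehicle-treated A549 cells, in which *CP*, *FGG* and *NTS* were lower. That contrast is therefore given below as a description. *FGA*, *FGB* and *FGG* encode the 3 chains of fibrinogen, *CP* ceruloplasmin, *SERPINA1* alpha-1-antitrypsin, *C3* complement component 3, *CFB* complement factor B, *LCN2* lipocalin 2, *SAA1* serum amyloid A1 and *NTS* the precursor of neurotensin.

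All cells carried Cas9 with an sgRNA against *GFP* (control) or *ADAR*, the gene of the RNA-editing enzyme ADAR1, delivered by one lentiviral vector to drug-selected cell populations. A549 cells (lung adenocarcinoma) were treated with vehicle, which was sterile water, or with 10 ng/mL IFN-β for 24 h. HCC366 (lung adenosquamous carcinoma), NCI-H1650 (lung adenocarcinoma) and NCI-H196 (variant small cell lung cancer) were untreated, and their RNA was collected 5 days after transduction. Each of the 10 conditions had 2 libraries, one for each of 2 sgRNAs (sg1 and sg2), so errors and p-values measure the spread between sgRNAs. In A549 the same pair of sgRNAs per target was used under both treatments, so the treatments give no independent repeats of the knockout.

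The acute-phase response is the change in secreted plasma proteins that follows infection or injury. It is best known from the liver, where IL-6 acts through STAT3, and IL-1 through NF-kB and C/EBP factors, on promoters that also depend on liver-type factors such as the HNF1 and HNF4 proteins. Epithelial cells of the lung can make many of the same proteins. Fibrinogen is assembled in the cell from pairs of its 3 chains, and the genes of these chains lie side by side. Neurotensin is not an acute-phase protein but a secreted peptide of gut and brain.

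The fibrinogen genes lie on chromosome 4 of GRCh37, *FGB* (ENSG00000171564) on the plus strand at chr4:155484163-155493959, *FGA* (ENSG00000171560) on the minus strand at chr4:155504278-155511894 and *FGG* (ENSG00000171557) on the minus strand at chr4:155525286-155534119. *CP* (ENSG00000047457) lies at chr3:148880197-148939616, *SERPINA1* (ENSG00000197249) at chr14:94843084-94857030, *C3* (ENSG00000125730) at chr19:6677715-6730573 and *NTS* (ENSG00000133636) at chr12:86268073-86276770. *CFB* (ENSG00000243649) lies at chr6:31913427-31919863, *LCN2* (ENSG00000148346) at chr9:130911350-130915732 and *SAA1* (ENSG00000173432) at chr11:18287807-18291524. *CFB* shares exons on its strand with *C2* and with a readthrough gene, *C3* with a long non-coding RNA and *SAA1* with an rRNA pseudogene, and reads that HTSeq could not assign to 1 gene were left out of the counts. *CP* overlaps exons of *HPS3* on the opposite strand, and whether the counting used strand is not given in the sources used here. *SAA1* is also nearly identical to *SAA2*, so its counts are uncertain.

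The 250 bases before the transcription start are shown for the 3 fibrinogen chains, because *FGB* parted from *FGA* and *FGG* in the measurements below, and for *CFB*, which rose with IFN-β. They were taken from the RefSeq table for GRCh38.p14, which held 7 of the 10 genes. It had no entry for *CP*, *C3* and *SAA1*, so these were not searched. Capitals mark 6-letter HNF1 half-sites (GTTAAT), the IL-6 response element (CTGGGAA), an interferon-type element (GAAANNGAA) and a TATA box (TATAAA). The first 3 motifs were searched on both strands and the last on the strand of the gene. A match on the opposite strand stands in the sequence as its reverse complement. The motifs do not overlap one another in these windows.
FGA chr4:154590743-154590992, minus strand: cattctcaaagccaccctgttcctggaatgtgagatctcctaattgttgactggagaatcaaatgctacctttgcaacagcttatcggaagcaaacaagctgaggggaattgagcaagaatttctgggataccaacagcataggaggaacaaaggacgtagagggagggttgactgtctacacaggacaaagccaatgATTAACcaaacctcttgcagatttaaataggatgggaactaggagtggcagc
FGB chr4:154562761-154563010, plus strand: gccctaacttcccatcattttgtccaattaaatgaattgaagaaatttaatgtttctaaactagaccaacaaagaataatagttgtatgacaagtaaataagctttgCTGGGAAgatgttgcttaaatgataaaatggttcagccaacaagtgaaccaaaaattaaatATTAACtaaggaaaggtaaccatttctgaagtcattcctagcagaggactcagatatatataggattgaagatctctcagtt
FGG chr4:154612657-154612906, minus strand: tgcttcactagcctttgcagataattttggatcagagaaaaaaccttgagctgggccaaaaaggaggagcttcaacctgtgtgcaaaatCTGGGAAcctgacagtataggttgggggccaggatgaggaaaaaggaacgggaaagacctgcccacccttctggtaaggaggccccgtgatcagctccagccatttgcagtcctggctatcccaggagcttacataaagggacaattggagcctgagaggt
CFB chr6:31945845-31946094, plus strand: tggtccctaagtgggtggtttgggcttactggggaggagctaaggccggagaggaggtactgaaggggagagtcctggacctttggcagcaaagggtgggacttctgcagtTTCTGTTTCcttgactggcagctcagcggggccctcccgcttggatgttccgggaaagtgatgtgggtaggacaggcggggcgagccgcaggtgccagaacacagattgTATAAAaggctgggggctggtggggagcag

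*FGB* held both the IL-6 response element and the HNF1 half-site, *FGA* held the half-site alone and *FGG* the IL-6 response element alone. Of the 34788 promoters in the table, 9.127% held the IL-6 response element, 6.255% the HNF1 half-site and 6.887% the interferon-type element. The TATA box letters were in 6.839%. *CFB* held the interferon-type element 139 to 131 bases before its start. The other start listed for *FGB* held the same pair of motifs. *SERPINA1* has 2 listed starts, one of them with an HNF1 half-site, and *LCN2* held a match to the NF-kB consensus, which 5.209% of promoters held. None of these motifs was found before *NTS*. A match is a description of the letters and not evidence of binding.

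Reads on genes ranged from 7381566 to 19520189 per library in A549, from 1116439 to 3440707 in HCC366 and from 4178438 to 5440992 in NCI-H1650. In NCI-H196 they ranged from 62679 in GFP sg2 to 9156750, and HCC366 ADAR sg2 had 85.6% of its reads not uniquely placed. *ADAR* itself fell in A549 under vehicle (log2 fold change −1.08) and IFN-β (−0.60), in NCI-H1650 (−1.29) and NCI-H196 (−0.41). The adjusted p-values of edgeR's quasi-likelihood test for these lay between 6.63e-14 and 0.00165. In HCC366 it was 953 ± 210 CPM (counts scaled to library size; SD, n = 2) with *GFP* and 531 ± 57.3 CPM (SD, n = 2) with *ADAR* sgRNAs, and did not pass the test. Of the lung and epithelial markers, *NKX2-1* and *SFTPC* had at most 3 reads in each condition, the mean of *KRT8* ran from 1228 to 2818 CPM over the conditions of A549, HCC366 and NCI-H1650 and was at most 48.0 CPM in NCI-H196, and *EPCAM* had means of 110 and 104 CPM in NCI-H1650 and at most 1.39 CPM elsewhere. The leukocyte markers *PTPRC*, *CD68* and *CD3E* had at most 16 reads in any condition. In such bulk RNA, fewer cells of a type and less RNA per cell cannot be told apart.

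Levels of the 10 genes in the control libraries differed widely between the lines. Here CPM were scaled by TMM, a correction for library composition, over all 20 libraries, and A549 is represented by its vehicle-treated *GFP* libraries. The 3 fibrinogen genes and *NTS* were highest in A549 and almost absent elsewhere. *FGA* was 12.3 and 19.99 CPM in the 2 A549 libraries, *FGG* was 11.98 and 16.01 CPM, and *FGB* was 3.83 and 7.22 CPM. Over the 12 libraries of the other 3 lines, the 3 chains together had 8 reads, never more than 1 per gene in a library. A gene without a read there could still have stood at up to 2.14 CPM in HCC366 GFP sg1, 0.628 CPM in NCI-H1650 GFP sg2 or 31.4 CPM in the shallow NCI-H196 GFP sg2, the levels that 3 reads would give (counting error only). *NTS* was 3.35 and 6.39 CPM in A549 and had 2 reads in all in the other lines.

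The remaining genes had their highest levels in different lines. *CP*, a copper-carrying ferroxidase, was 7.97 ± 2.46 CPM (SD, n = 2) in A549, above NCI-H1650 (2.78 ± 1.70) and HCC366 (1.25 ± 0.254), with the range of HCC366 inside that of NCI-H196 (1.116 ± 1.58). *SERPINA1*, the main inhibitor of neutrophil elastase, ran in the order HCC366 (19.2 ± 8.003 CPM), NCI-H1650 (7.82 ± 5.21), A549 (1.48 ± 0.960) and NCI-H196 (0.243 ± 0.343), and no 2 neighbours in this order had overlapping values. The place of NCI-H196 rests on GFP sg1, since GFP sg2 had no read and 3 reads there would give 31.4 CPM. *SAA1* was 52.5 ± 19.7 CPM in HCC366 and at most 2.04 CPM in any control library of the other lines. *LCN2*, which binds bacterial siderophores, was 15.02 ± 0.0554 CPM in NCI-H1650 and at most 0.874 CPM in the control libraries of the others. *CP*, *SAA1* and *LCN2* also had no read in NCI-H196 GFP sg2, so their levels in that line rest on GFP sg1. In HCC366, *LCN2* had no read in the control libraries, and 3 reads in GFP sg1 would give 2.14 CPM. *C3*, the hub of the complement cascade, was the most abundant by read count in A549 and NCI-H196. Its order was NCI-H196 (179 ± 12.9 CPM), A549 (111 ± 7.46), HCC366 (41.9 ± 10.5) and NCI-H1650 (11.6 ± 0.0893), without overlap between neighbours. *CFB*, the serine protease partner of C3, was 4.56 and 10.5 CPM in NCI-H196, the second of these from 1 read, and lower in HCC366 (1.88 ± 0.380 CPM), NCI-H1650 (0.813 ± 0.0341) and A549 (0.565 ± 0.330), the last 2 of which overlapped.

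**Figure D1:**
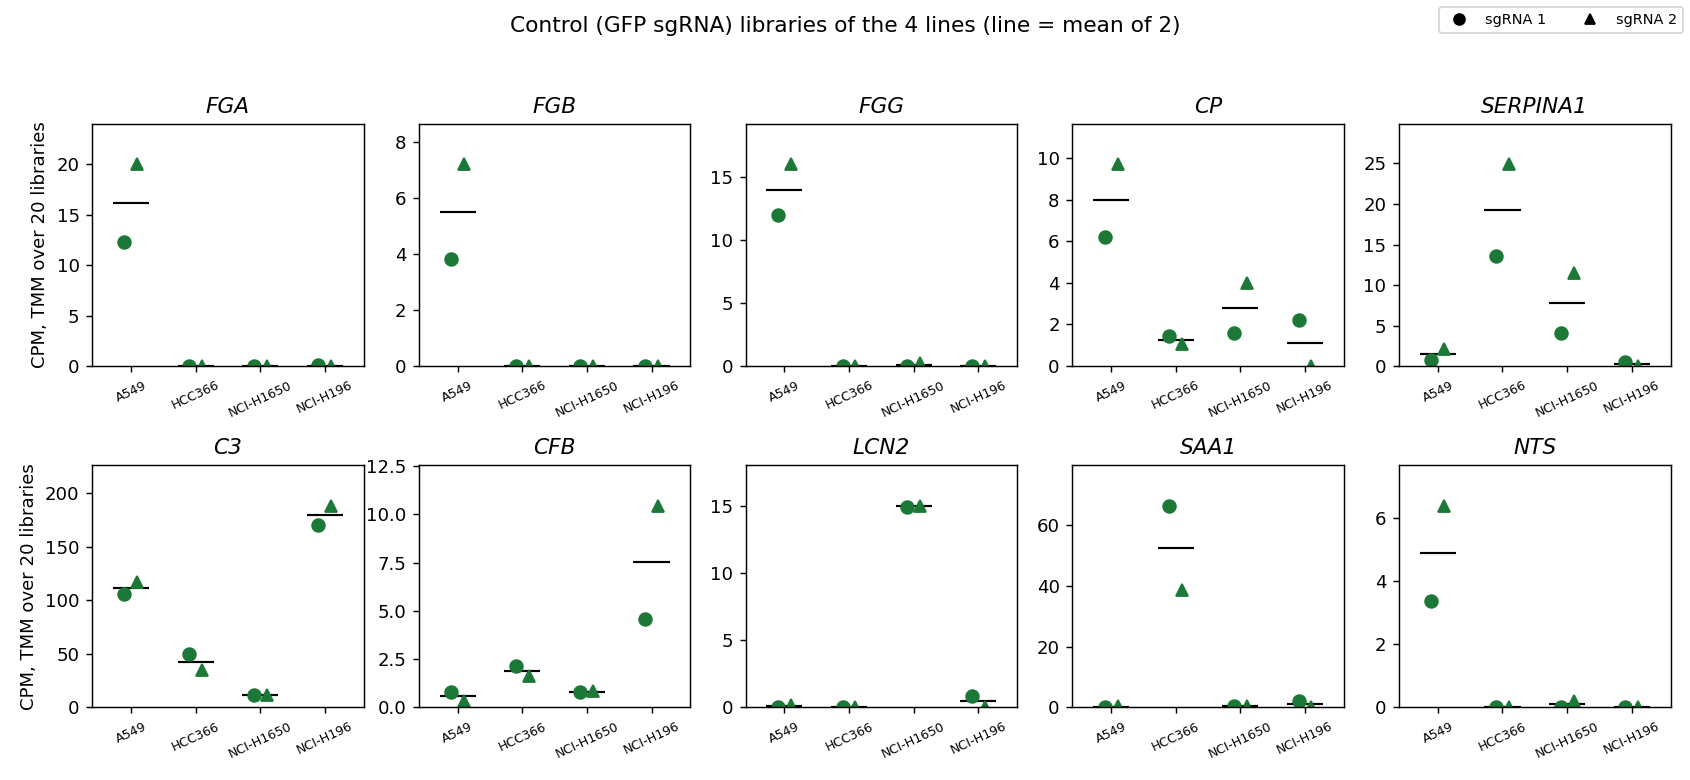
Level of each gene (y axis, CPM with TMM scaling over all 20 libraries, linear scale of its own per panel) in the 2 *GFP* libraries of each line (x axis), with vehicle for A549; circles are sg1, triangles sg2 and the line their mean. Fibrinogen and *NTS* are seen in A549 alone at these depths, *SAA1* mainly in HCC366 and *LCN2* mainly in NCI-H1650, while *C3* is present in all 4 lines.

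Divided by gene length (CPM per kilobase of all exons joined, TMM within A549), *C3* had the highest level of the 10 genes in vehicle-treated *GFP* A549 cells, at 7.82 ± 0.351 (SD, n = 2). *FGA* (3.34 ± 1.05), *FGG* (3.15 ± 0.573) and *NTS* (2.54 ± 1.06) followed, and the spread of these 3 overlapped. *FGB* stood at 1.02 ± 0.422 and *CP* at 0.913 ± 0.262 on the same scale. *SERPINA1*, *SAA1*, *CFB* and *LCN2* were all under 0.25.

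The contrast in vehicle-treated A549 cells, on which the genes were chosen, is described first. From here on CPM are scaled by TMM within each line. *CP* was 5.15 and 7.77 CPM (39 and 117 reads) in GFP sg1 and sg2 and 1.83 and 1.42 CPM (15 and 14 reads) in ADAR sg1 and sg2. *FGG* was 9.90 and 12.8 CPM with *GFP* and 4.76 and 3.66 CPM with *ADAR* sgRNAs. *NTS* was 2.77 and 5.11 CPM (21 and 77 reads) with *GFP* and 0.366 and 0.509 CPM (3 and 5 reads) with *ADAR* sgRNAs. The fitted log2 fold changes were −2.03 for *CP*, −1.46 for *FGG* and −3.18 for *NTS*. Of all 15449 genes tested in this contrast, 0.0906% were lower and 0.0324% higher at an adjusted p under 0.05, which is given as a background to the choice and not as a test of it.

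*FGA* was 10.2 and 16 CPM with *GFP* and 5.61 and 4.88 CPM with *ADAR* sgRNAs (log2 fold change −1.35). *SERPINA1* had 5 and 26 reads against 0 and 1 read (−4.31). *CFB* had 5 and 4 reads against 1 and 2 (−1.25). *FGB* was 3.17 and 5.78 CPM with *GFP* and 2.93 and 3.25 CPM with *ADAR* sgRNAs (−0.59), so the groups overlapped, unlike those of its neighbours on the chromosome. *SAA1* had 1 and 4 reads against 1 and 0, and *LCN2* had 0 and 2 reads against 2 and 2. *C3* was 87.6 and 93.4 CPM against 92.9 and 82.3 CPM (−0.05), with overlapping groups.

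**Figure D2:**
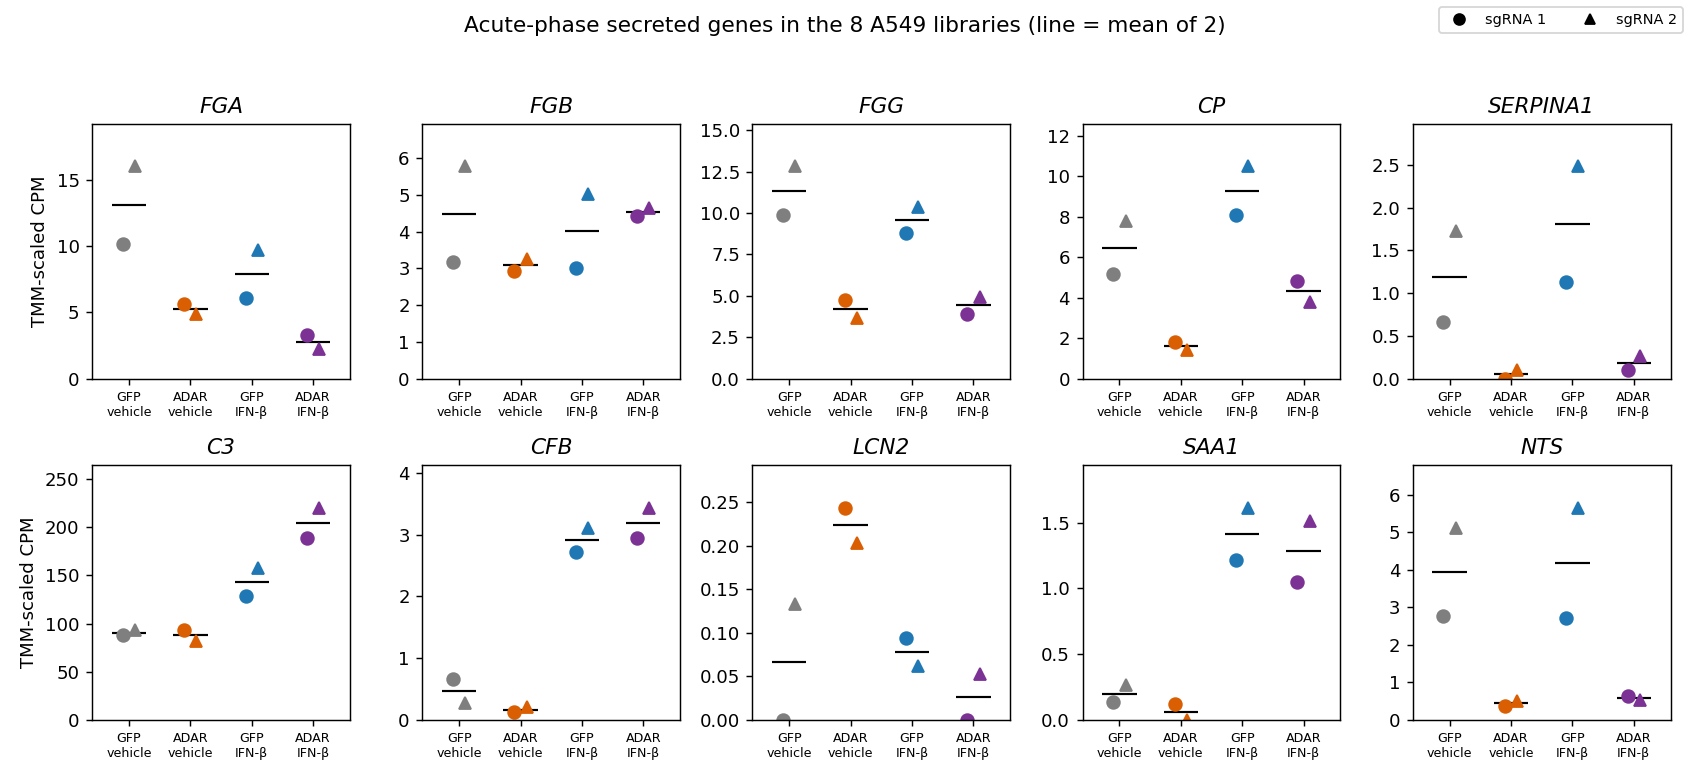
Level of each gene (y axis, CPM with TMM scaling over the 8 A549 libraries, linear scale of its own per panel) by sgRNA target and treatment (x axis); circles are sg1, triangles sg2 and the line their mean. *FGA*, *FGG*, *CP*, *SERPINA1* and *NTS* are lower with *ADAR* sgRNAs under both treatments, *FGB* overlaps, and *C3*, *CFB* and *SAA1* are higher with IFN-β.

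Under IFN-β, in libraries not used for the choice, *ADAR* knockout lowered *FGA*, *FGG*, *CP*, *SERPINA1* and *NTS* in A549 cells and raised *C3*. These are 6 of the 9 genes that passed the filter on low counts; *LCN2*, with at most 1 read in each of these libraries, did not. Over all 15449 genes tested, 10.8% rose and 6.19% fell, with a median log2 fold change of −0.01. The median of the 9 genes was −1.10, which is the value of *FGG* itself. *CP*, *FGG* and *NTS* were chosen as lower with the same *ADAR* sgRNAs, so this median does not measure a shift of the set. *FGA* was 6.10 and 9.69 CPM with *GFP* and 3.26 and 2.24 CPM with *ADAR* sgRNAs. This was a fall of 1.59 in log2 units (fitted value −1.59 ± 0.30, SE), with adjusted p = 0.000344 by edgeR's quasi-likelihood test, as below. *FGG* was 8.82 and 10.4 CPM against 3.89 and 4.95 CPM, and fell by 1.10 (standard error 0.25, adjusted p = 0.00261). Both chains were lower in both *ADAR* libraries than in either *GFP* library.

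*FGB* did not follow them. Its values were 3.001 and 5.03 CPM with *GFP* and 4.41 and 4.64 CPM with *ADAR* sgRNAs, and it did not pass the test (log2 difference 0.15 ± 0.32, SE; adjusted p = 0.796). *PLRG1*, which encodes a splicing factor and is the nearest gene beyond *FGB*, was 57.7 ± 6.49 CPM with *GFP* and 57.9 ± 4.45 CPM (SD, n = 2) with *ADAR* sgRNAs (log2 fold change 0.01, adjusted p = 0.953). The other neighbours examined, *DCHS2*, *LRAT* and *RBM46*, had at most 1 read in each A549 condition.

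The balance among the 3 chains was measured as the share of each in a library's fibrinogen reads, a measure chosen after the levels had been seen. *FGB* made up 13.6% (95% Wilson interval 9.34 to 19.5) and 16.7% (13.7 to 20.1) in the vehicle-treated *GFP* libraries. With *ADAR* sgRNAs and vehicle it made up 22.0% (15.3 to 30.7) and 27.6% (20.3 to 36.3). Under IFN-β it was 16.8% (12.1 to 22.7) and 20.05% (16.4 to 24.2) with *GFP* against 38.2% (29.6 to 47.5) and 39.2% (33.1 to 45.7) with *ADAR* sgRNAs. Under IFN-β the *FGB* intervals of the *ADAR* and *GFP* libraries did not meet. The vehicle shares contain the *FGG* reads on which the genes were chosen, so a higher *FGB* share there follows from the choice. Since *FGG* was chosen as lower with the same *ADAR* sgRNAs, a higher *FGB* share under IFN-β follows from it in part. The share of *FGA* was lowest in the IFN-β-treated *ADAR* libraries, at 28.2% (20.6 to 37.2) and 18.9% (14.4 to 24.5). In the IFN-β-treated *GFP* libraries it was 34.0% (27.7 to 41.0) and 38.6% (34.0 to 43.4), intervals that meet that of *ADAR* sg1. In the vehicle-treated *GFP* libraries it was 43.8% (36.6 to 51.1) and 46.3% (42.0 to 50.6). *FGG* ranged from 31.0% to 49.2% over the 8 libraries. Intervals cover counting error only, on 109 to 521 fibrinogen reads per library, and shares of reads are not corrected for length, so they compare libraries and not chains.

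**Figure D3:**
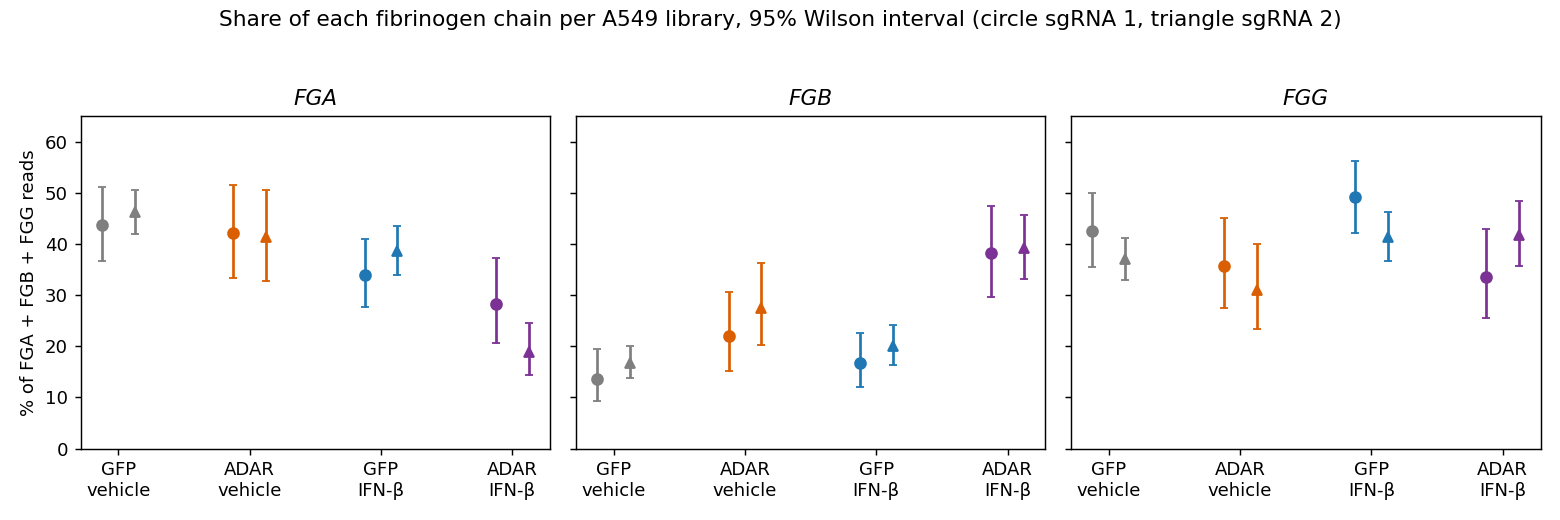
Share of *FGA*, *FGB* and *FGG* (y axis, percent of the reads on the 3 genes) in each A549 library by target and treatment (x axis); bars are 95% Wilson intervals for counting error. The *FGB* share is 38.2% and 39.2% in the IFN-β-treated *ADAR* libraries and at most 20.05% in the *GFP* libraries.

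*CP* fell by 1.14 under IFN-β (standard error 0.28, adjusted p = 0.00437), from 8.07 and 10.5 CPM with *GFP* to 4.83 and 3.80 CPM with *ADAR* sgRNAs. *SERPINA1* had 12 and 40 reads with *GFP* and 1 and 5 reads with *ADAR* sgRNAs, and fell by 3.12 (standard error 0.70, adjusted p = 0.00210). *NTS* had 29 and 91 reads with *GFP* against 6 and 10 reads with *ADAR* sgRNAs, that is 2.72 and 5.65 CPM against 0.631 and 0.521 CPM. Its fitted log2 difference was −2.91 ± 0.48 (SE), with adjusted p = 5.88e-05. *SERPINA1* and *NTS* passed the low-count filter in A549 only through their *GFP* libraries, so a fall was the change most readily tested. *C3* moved the other way, from 129 and 158 CPM to 189 and 220 CPM, and rose by 0.51 (standard error 0.11, adjusted p = 0.00145). *CFB* (2.72 and 3.10 against 2.94 and 3.44 CPM) and *SAA1* (1.22 and 1.61 against 1.05 and 1.51 CPM) overlapped between the targets, with log2 fold changes of 0.14 and −0.12 and adjusted p-values of 0.849 and 0.900 by the same test.

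The calls for *FGA*, *FGG* and *NTS* held in each of the 9 alternatives run, and those for the other 3 genes did not. *CP* lost its call without the *GFP* sg2 library treated with IFN-β (log2 fold change −0.92, adjusted p = 0.0895 by edgeR) and without the *ADAR* sg2 library treated with IFN-β (−0.95, adjusted p = 0.139 by edgeR). *SERPINA1* lost it without that *GFP* sg2 library (−2.40, adjusted p = 0.119 by edgeR) and had no adjusted p by DESeq2. *C3* lost it without that *ADAR* sg2 library (0.40, adjusted p = 0.0839 by edgeR) and when 1 fit held all 20 libraries (0.47, adjusted p = 0.109 by edgeR).

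Genes around the acute-phase response moved in both directions with *ADAR* knockout under IFN-β. Of 13 genes of IL-6 family and IL-1 signalling, 11 were tested, 6 rose and none fell, led by *IL1A* (log2 fold change 3.49), *IL6* (2.50), *SOCS3*, the feedback inhibitor of STAT3 (1.52), and *LIF* (1.12). *IL6* went from 53.5 ± 8.52 to 302 ± 65.9 CPM (SD, n = 2). Their median was 0.33. Of 17 liver-type and acute-phase transcription factors, 15 were tested, 5 rose and 2 fell, with a median of 0.34. The largest changes among them were a fall of *ONECUT1* (−2.20), a rise of *NFKBIZ* (1.88), a rise of *NFKB1* (1.18) and a fall of *HNF4A* (−1.09). *HNF4A*, a liver-type nuclear receptor, was 23.3 ± 10.9 CPM with *GFP* and 11.5 ± 3.99 CPM with *ADAR* sgRNAs, and *ONECUT1*, also called HNF6, had 30 reads against 7.

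Of 21 other positive acute-phase genes, 4 were tested, 2 rose, among them *PTX3* (3.32), and none fell, with a median of 0.24. *CRP*, *HP*, *ORM1* and *SERPINA3*, classical plasma proteins of the response that were singled out after their values were seen, had at most 5 reads in any A549 condition. Of 19 other complement genes, 12 were tested, with *CD59* (0.38) and *CD55* (0.37) higher, *CFD* (−0.91) and *CLU* (−0.37) lower and a median of −0.15. Of 12 negative acute-phase and liver secreted genes, 2 were tested and neither passed, nor did the single gene tested of the 5 for neurotensin processing and receptors. Among the cell type markers, *CDH1*, *KRT8* and *KRT18* fell (−0.74, −0.48 and −0.44), *COL1A1* fell (−0.68) and *ZEB1* rose (0.52). The 5 interferon check genes passed in neither direction. These marker changes stand beside the falls of the secreted genes, and their part in them was not tested.

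*C3*, *CFB* and *SAA1* were higher with IFN-β in A549 cells with either sgRNA target. The vehicle libraries of these contrasts also served the choice of genes, so *CP*, *FGG* and *NTS* are given by value only, and the 2 IFN-β contrasts and the 2 *ADAR* contrasts share their libraries in pairs. With *GFP* sgRNAs, 4.39% of the 15449 genes tested rose and 1.31% fell. With *ADAR* sgRNAs the shares were 15.5% and 9.04%. In *GFP* cells, *C3* went from 87.6 and 93.4 to 129 and 158 CPM (log2 fold change 0.66, adjusted p = 0.000115 by edgeR). In *ADAR* cells it went from 92.9 and 82.3 to 189 and 220 CPM (1.23, adjusted p = 8.47e-10 by edgeR). The values with IFN-β were above those with vehicle in every pair of libraries.

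*CFB*, whose promoter above holds the interferon-type element, went from 5 and 4 reads to 29 and 50 reads in *GFP* cells (log2 fold change 2.81, adjusted p = 0.000467 by edgeR). In *ADAR* cells it went from 1 and 2 reads to 28 and 66 reads (4.19, adjusted p = 1.10e-05 by edgeR). *SAA1* went from 1 and 4 reads to 13 and 26 in *GFP* cells (2.66, adjusted p = 0.0170 by edgeR), and from 1 and 0 reads to 10 and 29 in *ADAR* cells (4.33, adjusted p = 0.00132 by edgeR). These are small counts. The promoters of *C3* and *SAA1* were not searched, and a part of the element in the rise of *CFB* was not tested. *CFB* and *SAA1* passed the low-count filter only through their IFN-β libraries, so a rise was the change most readily tested. In *GFP* cells the call for *CFB* was lost without the vehicle sg2 library (2.13, adjusted p = 0.0899 by edgeR). That for *SAA1* in *GFP* cells was lost without vehicle sg1 (2.38, adjusted p = 0.165 by edgeR), without vehicle sg2 (3.34, adjusted p = 0.173 by edgeR), without IFN-β sg2 (2.43, adjusted p = 0.153 by edgeR) and with DESeq2 (adjusted p = 0.145). In *ADAR* cells *SAA1* lost it without vehicle sg2 (3.34, adjusted p = 0.0567 by edgeR), had no adjusted p by DESeq2 and stood at 7.06 without vehicle sg1.

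Of *FGA* and *FGB*, the chains tested here, *FGA* fell with IFN-β in *ADAR* cells. In *ADAR* cells it went from 5.61 and 4.88 to 3.26 and 2.24 CPM (log2 fold change −0.98, adjusted p = 0.0275 by edgeR). The call was lost without *ADAR* vehicle sg1 (−0.87, adjusted p = 0.129 by edgeR), vehicle sg2 (−1.07, adjusted p = 0.0603 by edgeR) or IFN-β sg2 (−0.69, adjusted p = 0.309 by edgeR), and when 1 fit held all 20 libraries (adjusted p = 0.0515 by edgeR). In *GFP* cells it went from 10.2 and 16 to 6.10 and 9.69 CPM (−0.74, adjusted p = 0.111 by edgeR), with both IFN-β values under both vehicle values. It passed there without *GFP* vehicle sg1 (−1.01, adjusted p = 0.0320 by edgeR) or *GFP* IFN-β sg2 (−1.13, adjusted p = 0.0370 by edgeR). *FGB* differed by −0.18 in *GFP* cells and 0.55 in *ADAR* cells (adjusted p = 0.874 and 0.272 by edgeR), where it went from 2.93 and 3.25 to 4.41 and 4.64 CPM, without overlap. *SERPINA1* differed by 0.52 and 1.71 (adjusted p = 0.734 and 0.418 by edgeR).

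By value, the log2 difference between IFN-β and vehicle was 0.50 for *CP*, −0.25 for *FGG* and 0.07 for *NTS* in *GFP* cells. In *ADAR* cells it was 1.39 for *CP*, 0.11 for *FGG* and 0.34 for *NTS*. By these values *CP* was higher with IFN-β in both backgrounds and lower with *ADAR* sgRNAs under both treatments. It was chosen on its low *ADAR* vehicle values, so its higher value with IFN-β in *ADAR* cells follows in part from the choice. The difference between the 2 *ADAR* effects, IFN-β minus vehicle, was 1.67 for *SAA1*, 1.38 for *CFB*, 1.19 for *SERPINA1*, 0.89 for *CP*, 0.73 for *FGB*, 0.56 for *C3*, 0.36 for *FGG*, 0.27 for *NTS* and −0.24 for *FGA*. It contains the contrast on which the genes were chosen, so it is given by value, with no test read from it.

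The check genes *MX1* (log2 fold change 10.85) and *IFIT1* (9.63) and the other 3 interferon check genes rose with IFN-β in *GFP* cells. Of the 12 complement genes tested beside *C3* and *CFB*, 6 rose and none fell in each background. In *GFP* cells these included *SERPING1*, the C1 inhibitor (4.48), *C1R* (2.61) and *C1S* (2.25), and the median was 0.52. In *ADAR* cells *SERPING1* (2.84), *C1R* (2.46) and *C1S* (2.16) were among those that rose, with a median of 0.71. Of the 15 transcription factors tested, 2 rose in *GFP* cells, *CEBPD* (0.93) and *STAT3* (0.42), against 9 that rose and 2 that fell in *ADAR* cells, with medians of 0.05 and 0.59. The largest in *ADAR* cells were *ONECUT1* (−2.60), *NFKBIZ* (2.11), *NFKB1* (1.28) and *CEBPD* (1.25). Of the 11 genes of IL-6 family and IL-1 signalling tested, 3 rose in *GFP* cells, with *IL6* (0.65) first. In *ADAR* cells 7 rose and *IL6R* fell (−0.95), with *IL1A* (3.79) and *IL6* (3.01) leading the rises.

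**Figure D4:**
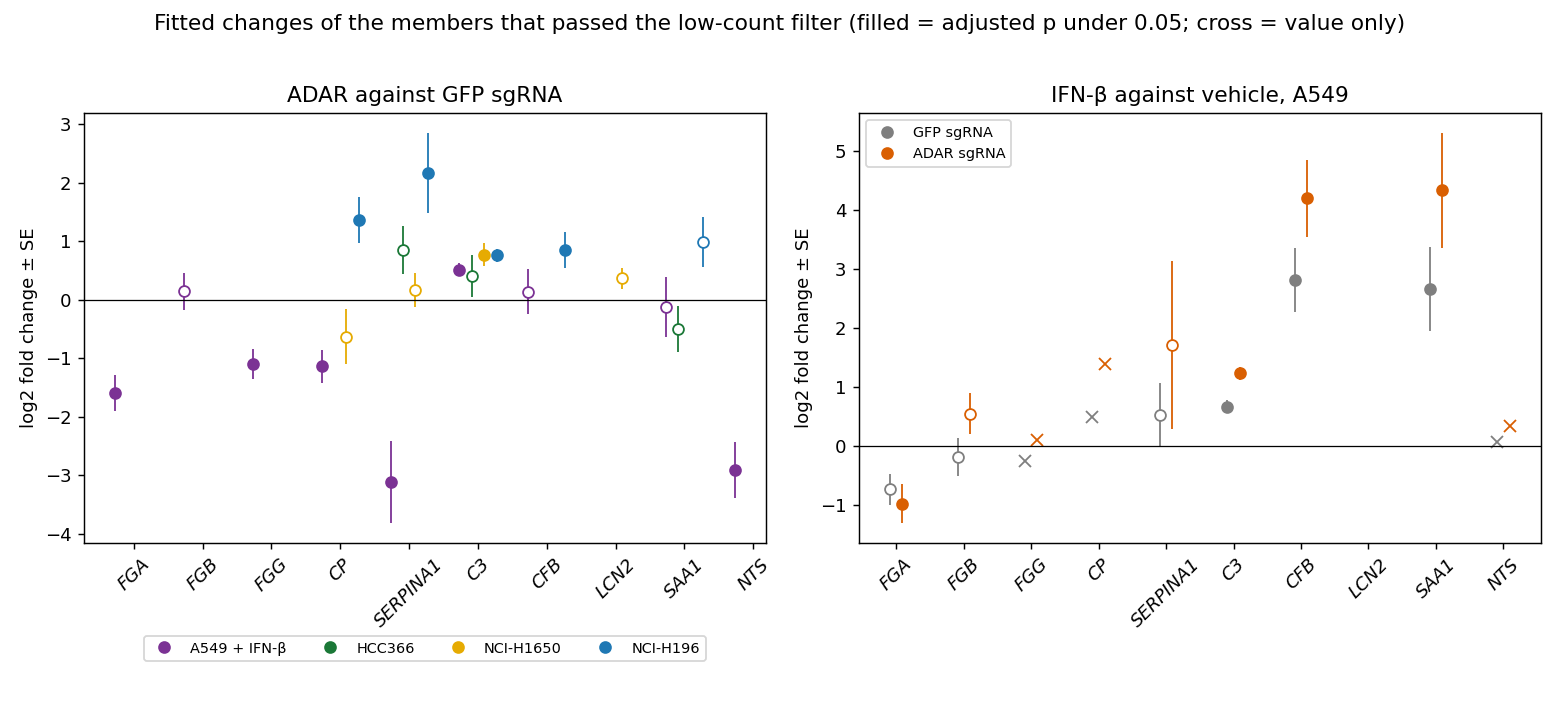
Fitted log2 fold change (y axis, bars are standard errors) of each gene that passed the low-count filter (x axis), for *ADAR* against *GFP* sgRNAs (left) and for IFN-β against vehicle in A549 (right); filled points had an adjusted p under 0.05, and crosses are values of the genes chosen on the vehicle libraries. *FGA*, *FGG*, *CP*, *SERPINA1* and *NTS* lie below 0 in A549 with IFN-β, and the called points of NCI-H1650 and NCI-H196 lie above 0.

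In the other 3 lines the fibrinogen genes and *NTS* were too low to test, and no member fell with *ADAR* knockout at the threshold. In NCI-H1650, 4 of the 10 genes were tested, and *C3* rose from 13.01 and 13.1 to 21.9 and 22.9 CPM (log2 fold change 0.77, standard error 0.19, adjusted p = 0.00491 by edgeR). Of all 14530 genes tested there, 6.18% rose and 2.42% fell. The call for *C3* was lost without *GFP* sg1 (adjusted p = 0.0524 by edgeR), without *GFP* sg2 (adjusted p = 0.0527 by edgeR), in a fit of all 20 libraries (adjusted p = 0.132 by edgeR) and with DESeq2 (adjusted p = 0.234), while its log2 fold change stayed between 0.74 and 0.80. *LCN2* was 16.8 and 17.2 against 22.5 and 21.4 CPM, without overlap (0.37, adjusted p = 0.223 by edgeR). *SERPINA1* was 4.63 and 13.1 against 8.54 and 11.3 CPM (0.17, adjusted p = 0.795 by edgeR), and *CP* 1.76 and 4.54 against 1.49 and 2.56 CPM (−0.63, adjusted p = 0.469 by edgeR).

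In HCC366, 3 of the 10 genes were tested and none passed at the threshold with edgeR, nor at an unadjusted p under 0.05 (0 genes), nor with DESeq2 (0 genes). Of all 11135 genes tested, 1.2% rose and 0.0449% fell. *SERPINA1* was 14.7 and 26.6 CPM with *GFP* and 33.2 and 43.97 CPM with *ADAR* sgRNAs, without overlap (log2 fold change 0.86, adjusted p = 0.308 by edgeR). Without *ADAR* sg1 its log2 fold change was 0.94, which rests on *ADAR* sg2 alone, the library with 85.6% of its reads not uniquely placed. *SAA1* was 72.0 and 41.3 against 42.9 and 36.2 CPM (−0.50, adjusted p = 0.514 by edgeR), and *C3* 53.5 and 36.96 against 54.2 and 64.0 CPM (0.41, adjusted p = 0.568 by edgeR). *LCN2*, under the filter, had no read in the *GFP* libraries and 3 and 6 reads in the *ADAR* libraries. It was the member called without a filter (adjusted p = 0.0326 by edgeR) and in the fit of all 20 libraries (adjusted p = 0.00171 by edgeR), and it had no adjusted p by DESeq2.

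In NCI-H196, 5 of the 10 genes were tested and 4 rose, beside 10.3% of all 14094 genes that rose and 7.5% that fell. *C3* was 195 and 264 CPM with *GFP* and 315 and 345 CPM with *ADAR* sgRNAs (log2 fold change 0.76, adjusted p = 9.49e-11 by edgeR). *CP* was 2.56 and 0 against 8.12 and 6.40 CPM (1.37, adjusted p = 0.00488 by edgeR). *SERPINA1* had 5 and 0 reads against 4 and 19 (2.17, adjusted p = 0.0144 by edgeR), *CFB* 47 and 1 reads against 10 and 76 (0.85, adjusted p = 0.0327 by edgeR), and *SAA1* 21 and 0 reads against 1 and 41 (0.99, adjusted p = 0.0944 by edgeR). *GFP* sg2 had 18 reads on *C3* and at most 1 on each of the others, so these values rest mainly on *GFP* sg1. *SERPINA1* and *CP* passed the low-count filter there only through their *ADAR* libraries, so a rise was the change most readily tested for both. Among the 4 genes, 0 passed with DESeq2, with a replicate block by sgRNA number or in a fit of all 20 libraries. Leaving out 1 library kept all 4 only without *GFP* sg2. Without *GFP* sg1 or *ADAR* sg2 none passed, *CFB* then standing at −0.60 without *GFP* sg1, and without *ADAR* sg1 a single gene did.

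Some IL-6 family and IL-1 genes rose with *ADAR* knockout in these lines, to be read beside the shares of all genes given above. In NCI-H1650, 3 of 10 tested rose, *IL6* (1.15), *LIF* (0.77) and *JAK1* (0.31), and 5 of 10 transcription factors did, with *NFKB1* (0.81) and *CEBPB* (0.70) leading. In NCI-H196, 6 of 12 tested rose, among them *LIF* (1.61) and *IL6* (1.43), and 4 of 8 transcription factors did, with *CEBPD* (1.35) and *NFKBIZ* (1.29) leading. The NCI-H196 counts come from a fit of 2513 calls, against 11 with DESeq2. In HCC366, *IL1B* rose from 3.98 ± 1.25 to 34.7 ± 2.10 CPM (SD, n = 2; 3.02, adjusted p = 0.0273 by edgeR), alone among 11 tested, while *IL6ST* (−1.25) and *LIFR* (−1.56), singled out after their values were seen, did not pass. *IL1B* passed the low-count filter in HCC366 only through its *ADAR* libraries, so a rise was the change most readily tested. *HNF4A*, at 35.1 ± 2.84 CPM in vehicle-treated *GFP* A549 cells, had at most 4 reads in any condition of the other 3 lines.

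Over the 8 A549 libraries, the genes whose log2 CPM followed these patterns most closely were ranked by Pearson correlation across 15449 genes, as a description in libraries that share targets and treatments. *CP*, *FGG* and *NTS* were chosen because they were lower together in the vehicle-treated *ADAR* libraries, and the vehicle libraries are 4 of the 8, so their likeness to one another follows in part from the choice. For *CP* they were *MAPK4* (r = 0.988), *BORCS8* (0.968), *SEMA4D* (0.967), *JDP2* (0.959) and *A1CF* (0.956). For *FGG* they were *SLX4* (0.972), *GABRA2* (0.952), *ZNF775* (0.952), *NTS* (0.949) and ENSG00000279738 (0.948). For *NTS* they were *GABRA2* (0.972), *SERPINA1* (0.969), *A1CF* (0.956), ENSG00000279738 (0.952) and *FGG* (0.949). Mean levels over the 8 libraries were low for *GABRA2* (0.629 CPM), *A1CF* (0.709 CPM) and *SERPINA1* (0.808 CPM), so their correlations rest on small counts. The other genes ranked had means of 2.29 CPM or more. *FGA* followed *FGG* with r = 0.834, whereas *FGB* followed it with r = 0.331 and *C3* with r = −0.199.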

How the data were processed

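The authors depleted ribosomal RNA, made directional libraries, sequenced paired-end reads, used STAR for alignment (genome build hg19) and HTSeq for counting per gene. The submitters' processing notes also name DESeq2, versions not given in the sources used here, nor the annotation release. The deposited values are these raw counts, 1 file per library. HTSeq summary lines were left out of library sizes.

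Counts were scaled by TMM, filtered by filterByExpr per group and tested with edgeR 4.0.16 (R 4.3.3, limma 3.58.1) by the quasi-likelihood F-test, with Benjamini-Hochberg adjustment over all genes tested, a threshold of 0.05 and a prior count of 0.125. The 8 A549 libraries shared a fit of 4 groups, and each other line had its own fit of 4 libraries. DESeq2 1.42.0 and other settings were alternatives. Correlations used a prior count of 2. The scripts were tested on simulated data. Gene positions came from GENCODE mapped to GRCh37. The genes named are the 10 members, *ADAR*, the genes beside the fibrinogen cluster, the 5 genes most like *CP*, *FGG* and *NTS*, and up to 4 called genes with the largest changes per list, some of which are not reported here. Members and lists were chosen with earlier results of these data known. The sgRNA numbers name different sgRNAs in the 2 targets and do not pair *ADAR* with *GFP* libraries. Within a target they name the same sgRNA under vehicle and IFN-β, and a fit with a block for each sgRNA was an alternative.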

Additional observations from a re-analysis of the deposited data

Results flagged for a closer look

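The effect of *ADAR* sgRNAs on *SERPINA1* and *CP* differed between A549 with IFN-β and some of the other lines when the difference itself was tested. The test was chosen after the effects had been seen, in one edgeR quasi-likelihood fit of all 20 libraries. It covered 11 differences, those of genes that passed the low-count filter both in A549 with IFN-β and in the other line, and 3 passed at an adjusted p under 0.05. *SERPINA1* passed that filter in A549 only through its *GFP* libraries and in NCI-H196 only through its *ADAR* libraries. In NCI-H196 *CP* too passed it only through its *ADAR* libraries, with 23 and 0 reads in the *GFP* libraries. *CP* was also chosen as lower with the same *ADAR* sgRNAs in A549, so its difference from other lines follows in part from the choice. For *SERPINA1*, the effect in HCC366 minus that in A549 with IFN-β was 3.91 in log2 units (SE 0.76, adjusted p = 0.00136 by edgeR), from effects of 0.78 and −3.13. In NCI-H196 the same difference was 5.34 (standard error 1.07, adjusted p = 0.00975 by edgeR), with an effect of 2.21 there. In NCI-H1650 it was 3.32 (standard error 0.77, adjusted p = 0.0629 by edgeR) and did not pass. For *CP*, the effect in NCI-H196 minus that in A549 with IFN-β was 2.57 (standard error 0.55, adjusted p = 0.0219 by edgeR), from effects of 1.40 and −1.18. In NCI-H1650 it was 0.56 (SE 0.58, adjusted p = 0.837 by edgeR), with an effect of −0.62 there, and did not pass. Over all 19523 genes of this fit, 11.3% passed for HCC366, 0.21% for NCI-H1650 and 0.302% for NCI-H196. The lines also differ in treatment, and the time from transduction to collection is not given for A549. The NCI-H196 values rest on 1 deep control library.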

How the results depend on the processing

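Counts of genes called by edgeR in A549 moved from 19 with vehicle (*ADAR* against *GFP*) to 4 with DESeq2, 30 without a filter and 5 with all 20 libraries in one fit. That fit called 1087 genes in place of 2622 for *ADAR* under IFN-β, 531 in place of 880 for IFN-β in *GFP* cells and 2067 in place of 3788 for IFN-β in *ADAR* cells. In HCC366, 139 genes became 308 with DESeq2, 903 without a filter and 3701 with all 20 libraries, the last 2 with 1 member called. In NCI-H1650, 1250 became 389 with DESeq2 and 159 with all 20 libraries, both with 0 members. In NCI-H196, 2513 became 11 with DESeq2, 1552 without a filter and 98 with all 20 libraries, with 0, 3 and 0 members.

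Leaving out 1 library at a time gave 3 to 17 genes for *ADAR* under vehicle, 689 to 3581 under IFN-β, 517 to 1245 for IFN-β in *GFP* cells, 1774 to 3496 in *ADAR* cells, 9 to 6408 in HCC366, 542 to 1110 in NCI-H1650 and 41 to 3041 in NCI-H196. Members called ranged from 4 to 6, 1 to 3, 2 to 4, 0 to 1, 0 to 1 and 0 to 4 in the last 6 of these.

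A replicate block by sgRNA number gave 300 genes in HCC366 and 115 in NCI-H196, where no member stayed called. It changed no member's call in A549, HCC366 or NCI-H1650. A replicate block for each sgRNA, which ties vehicle to IFN-β libraries, called 911 genes in *GFP* and 3680 in *ADAR* cells and changed no member's call, *FGA* in *GFP* cells standing at −0.73 (adjusted p = 0.0788 by edgeR). The deviations of same-numbered libraries correlated at −0.25 in HCC366, and a block with crossed numbers, added after seeing this, called 960 genes there and 0 members.

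Of 573 recomputed log2 fold changes of single members, 40 lost and 3 gained a call and 11 changed sign, of which *CFB* in NCI-H196 had been called. The 573 include changes given by value only, in the vehicle contrast, the difference between the *ADAR* effects, and *CP*, *FGG* and *NTS* with IFN-β. For these, calls were not compared, and a change of sign was counted only where the main fit had passed the threshold. Among those left uncounted, *C3* spanned −0.14 to 0.04 (*ADAR* with vehicle) and *NTS* −0.58 to 0.62 (IFN-β in *GFP* cells). *FGB* turned to −0.14 (*ADAR* under IFN-β, without *GFP* sg1), and to 0.11 and 0.37 (IFN-β in *GFP* cells, without IFN-β sg1 or vehicle sg2). *SAA1* turned to 0.11 and 0.08 (*ADAR* under IFN-β, without *GFP* sg2 or *ADAR* sg1) and to −0.56 (NCI-H196, block). *SERPINA1* turned to −0.18 (IFN-β in *GFP* cells, without IFN-β sg2), and to −0.41 and −0.04 in NCI-H1650 (without *GFP* sg1 or *ADAR* sg2), *CP* to 0.14 there (without *GFP* sg2) and *CFB* to −0.60 in NCI-H196 (without *GFP* sg1). With 1 library left out at a time, these spanned −0.14 to 0.60 and −0.63 to 0.37 for *FGB*, −0.44 to 0.11 for *SAA1* under IFN-β, −0.18 to 1.48 (IFN-β) and −0.41 to 1.06 (NCI-H1650) for *SERPINA1*, −1.17 to 0.14 for *CP* and −0.60 to 0.93 for *CFB*. The causes were not tested. Of 80 line levels under other scalings, 68 stayed within 1 SD. Depth limits NCI-H196 and HCC366 most.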
